A study of Mus musculus with 2 samples.

Results

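Serine proteases and the Kunitz and Kazal inhibitors that act on them were followed in mouse small-intestinal organoids cultured with RankL, set against organoids cultured without it. The set held 10 genes, taken by name: the proteases Klk1, Klk1b5, Klk1b26, Prss12, Prss8, St14 and Tmprss2, and the inhibitors Spink1, Spint1 and Spint2. They were picked with the RankL over untreated ratios of these same arrays in view, so their ratios are a description and no test was made. The arrays held probes for 32235 genes or accessions, and 8 of the 10 members were found among them by RefSeq accession, with 11 probes. Klk1b5 and Spint2 were not analysed here. A probe counted as measured where it had a ratio on both arrays and at least 1 of the RNAs gave a signal well above background on both. That held for 10 of the 11 probes and for 7 members, which were 5 of the 7 proteases and 2 of the 3 inhibitors, among 12877 measured genes or accessions.

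Both groups were organoids from wild-type mice, which are epithelial structures grown in gel from intestinal crypts, in a medium holding EGF, Noggin and R-spondin. The RankL group received recombinant mouse RankL at 50 to 200 ng/ml, with medium renewed on day 2 and day 5, and the untreated group received none. The sources used here do not give the dose and time point behind these RNAs, nor the number of mice or cultures. Each of 2 dual-colour arrays carried RankL RNA and untreated RNA, with RankL labelled with Cy3 on array 1 and with Cy5 on array 2, the dye swap. As both arrays hold 1 RNA pair, n is 1 per group, no p-value is given, and each ± below is an SD over the 2 arrays. That is a technical error only, with no part from separate cultures. Likewise, groups said below to overlap or not are 2 technical readings of 1 RNA each. Of the non-control spots, 38.3% and 43.4% were well above background in RankL RNA on arrays 1 and 2, and 39.6% and 40.1% in untreated RNA. All 7 epithelial marker genes were measured and 0 of them differed by 2-fold, while 0 of 7 leukocyte markers, 0 of 3 endothelial markers and 2 of 6 fibroblast markers were measured. Of the leukocyte markers, 1 was well above background on both arrays in RankL RNA and 1 in untreated RNA, but without a ratio on both arrays. The fibroblast markers were Col1a2, at a log2 ratio of 0.17, and Vim, at −0.067. The 7 M cell markers were all higher with RankL, by a median log2 ratio of 4.88.

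Trypsin-like serine proteases cut proteins after basic residues, and most are made as inactive precursors that another protease must cut first. In epithelia, the transmembrane protease matriptase (St14) and the lipid-anchored protease prostasin (Prss8) activate each other at the cell surface and act on cell adhesion proteins, growth factor precursors and the epithelial sodium channel. They are held in check by the transmembrane Kunitz inhibitors encoded by Spint1 and Spint2, while Spink1 encodes a secreted Kazal inhibitor of trypsin. RankL binds the receptor RANK, which signals through NF-kB, and is the cytokine that induces M cells, which take up antigens from the gut lumen.

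The promoter sequences below were taken from RefSeq (mouse build GRCm38.p6), whose table holds 7 of the 10 members as windows of 250 bases before to 50 bases after the gene start. Prss8, St14 and Spink1 had no window there and were not searched. They are shown because Prss12 was far lower with RankL, while Tmprss2 and Spint1 had ratios above 0 on both arrays. Each is printed 5′ to 3′ on the strand of its gene, from 250 bases before the start to 30 bases after it. The windows were searched on both strands for the NF-kB consensus and for 4 shorter motifs, and capitals mark the matches. These were TATAAA of the TATA box, then TGANTCA as known from Fos and Jun, then GGAAGT as known from Ets family factors such as Spib, and then GGGCGG as known from Sp family factors.
Prss12, chr3:123446663-123446942, plus strand: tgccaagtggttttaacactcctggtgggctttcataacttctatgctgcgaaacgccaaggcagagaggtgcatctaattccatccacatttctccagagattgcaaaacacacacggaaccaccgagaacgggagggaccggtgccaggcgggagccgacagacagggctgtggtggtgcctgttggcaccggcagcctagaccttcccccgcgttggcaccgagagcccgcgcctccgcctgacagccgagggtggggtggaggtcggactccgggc
Tmprss2, chr16:97611166-97611445, minus strand: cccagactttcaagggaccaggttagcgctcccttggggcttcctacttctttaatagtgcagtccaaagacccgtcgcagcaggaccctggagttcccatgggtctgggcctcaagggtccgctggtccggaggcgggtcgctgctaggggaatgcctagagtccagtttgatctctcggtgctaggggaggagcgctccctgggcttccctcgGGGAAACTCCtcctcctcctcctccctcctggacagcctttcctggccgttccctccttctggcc
Spint1, chr2:119237110-119237389, plus strand: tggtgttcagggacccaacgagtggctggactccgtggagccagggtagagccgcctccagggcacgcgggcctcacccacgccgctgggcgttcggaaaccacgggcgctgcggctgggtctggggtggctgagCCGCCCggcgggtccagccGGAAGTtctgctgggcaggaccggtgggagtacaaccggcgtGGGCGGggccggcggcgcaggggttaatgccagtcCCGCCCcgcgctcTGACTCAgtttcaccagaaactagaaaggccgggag
The Prss12 window held 0 matches to the 5 motifs. The Tmprss2 window held 1 match to the NF-kB consensus, which begins 35 bases before the start, and 8.46% of all 32851 windows of the same length hold at least 1. The Spint1 window held 1 TGANTCA match beginning 6 bases before the start, 1 GGAAGT match at 96 bases, and GGGCGG matches at 115, 54 and 19 bases, of which those at 115 and 19 are on the opposite strand. Among all windows, TGANTCA was found in 7.81%, GGAAGT in 23.8%, GGGCGG in 35.7% and TATAAA in 13.6%. Spint2, whose RNA was not analysed here, had an NF-kB consensus match at 48 bases and GGGCGG matches at 124, 83 and 18 bases. The motifs do not overlap one another in these windows, and a match is only a run of letters.

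Klk1 lies in a cluster of closely related kallikrein genes on chromosome 7, and the stretches below show how alike parts of their windows are. The Klk1 line runs from 90 bases before the Klk1 start to 30 bases after it, and the other lines are the parts of their genes' windows that align to it. Such a part need not lie at the same distance from its own gene's start, and the Klk1b5 line ends before the Klk1b5 start. Capitals mark bases identical to Klk1 in the alignment.
Klk1, chr7:44225270-44225389, plus strand: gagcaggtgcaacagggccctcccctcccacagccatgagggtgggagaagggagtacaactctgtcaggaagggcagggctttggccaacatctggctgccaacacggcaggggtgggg
Klk1b3, chr7:44198049-44198165, plus strand: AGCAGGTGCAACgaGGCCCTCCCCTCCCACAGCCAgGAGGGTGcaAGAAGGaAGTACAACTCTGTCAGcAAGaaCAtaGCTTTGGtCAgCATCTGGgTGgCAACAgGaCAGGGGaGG
Klk1b4, chr7:44207248-44207365, plus strand: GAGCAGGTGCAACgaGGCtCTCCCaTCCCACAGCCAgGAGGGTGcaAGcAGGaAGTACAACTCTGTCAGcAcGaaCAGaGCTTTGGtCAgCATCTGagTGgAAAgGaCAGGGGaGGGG
Klk1b8, chr7:43950483-43950601, plus strand: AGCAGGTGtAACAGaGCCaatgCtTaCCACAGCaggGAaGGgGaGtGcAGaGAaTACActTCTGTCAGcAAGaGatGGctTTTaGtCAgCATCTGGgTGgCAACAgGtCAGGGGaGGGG
Klk1b5, chr7:44216293-44216410, plus strand: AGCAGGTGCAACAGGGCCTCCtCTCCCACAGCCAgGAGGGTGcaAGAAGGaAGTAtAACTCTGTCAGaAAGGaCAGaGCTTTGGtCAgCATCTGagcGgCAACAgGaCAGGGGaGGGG
Klk1b26, chr7:44012518-44012630, plus strand: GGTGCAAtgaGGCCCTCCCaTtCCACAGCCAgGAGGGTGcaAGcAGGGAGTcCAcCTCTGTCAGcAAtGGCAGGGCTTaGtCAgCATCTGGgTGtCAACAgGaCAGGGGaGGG
Klk1b3 matched Klk1 at 99 of 117 aligned bases (84.6%), Klk1b4 at 96 of 118 (81.4%) and Klk1b8 at 85 of 119 (71.4%). Klk1b5 matched at 100 of 118 (84.7%) and Klk1b26 at 92 of 113 (81.4%). The Klk1 and Klk1b26 windows held 0 matches to the 5 motifs searched above. The Klk1b5 window held 1 GGAAGT match, which begins 133 bases before its start and lies in the printed line. The printed Klk1b3 and Klk1b4 lines hold the same letters.

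Among the 7 measured members, Spink1, Prss12 and Klk1 were lower with RankL, and 0 were higher by the same rule. The rule asked for a mean log2 ratio of at least 1 in size (2-fold), with each array alone reaching 0.5 in that direction. Among all 12877 measured genes, 322 (2.5%) were lower and 704 (5.47%) were higher by it. Because the members were chosen on this contrast, nothing is read from their share. St14 and Prss8 had mean ratios below 0, Tmprss2 and Spint1 above 0, and none of these 4 met the rule. The members' median log2 ratio was −0.56, beside 0.0086 for all measured genes, whose 10th and 90th percentiles were −0.50 and 0.63. Both arrays gave the same sign for 6 of the 7 members, the exception being Prss8. In a bulk RNA, fewer cells of a type and less RNA per cell cannot be told apart. The M cell markers, which summed to a normalised intensity of 61840.5 and 64248 in RankL RNA and 2774 and 2212 in untreated RNA, moved with these differences, and their part in them was not tested.

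**Figure D1:**
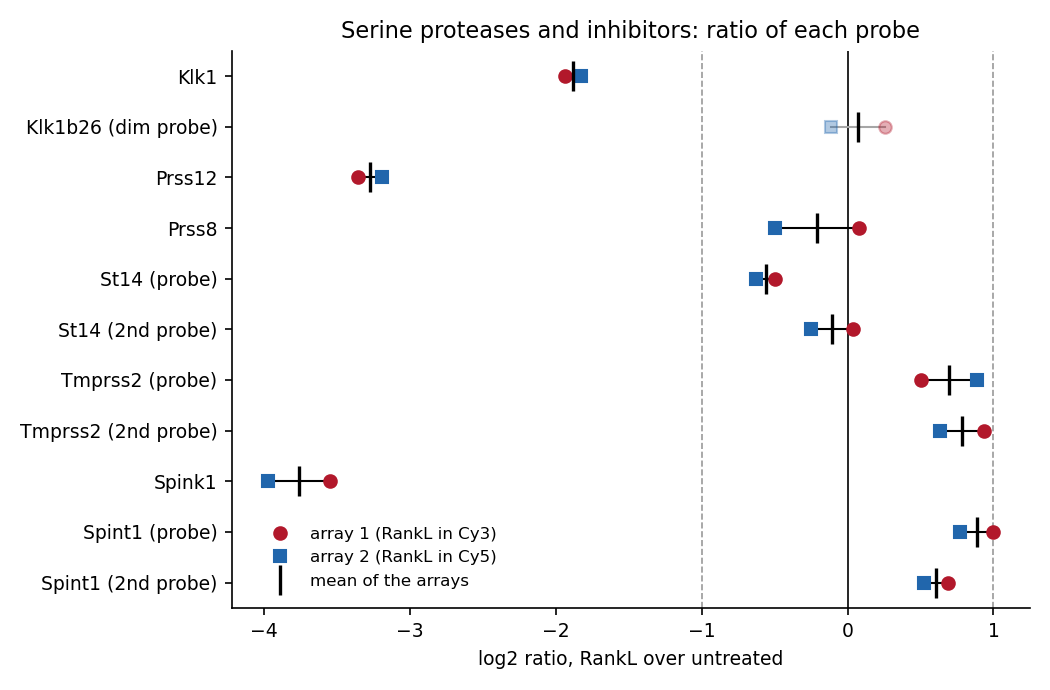
Log2 ratio of RankL over untreated for each of the 11 member probes (circle, array 1; square, array 2; vertical tick, mean of the arrays; dashed lines, a 2-fold difference). Spink1, Prss12 and Klk1 lie beyond the 2-fold line on the lower side on both arrays, Tmprss2 and Spint1 lie above 0 on both, and the pale Klk1b26 probe was dim in both RNAs.

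Of the inhibitors, Spink1 had the lowest ratio of the set. Normalised spot intensity is the brightness of a probe in 1 colour after loess within each array and scaling between the arrays. For Spink1 it was 293 on array 1 and 246 on array 2 in RankL RNA, against 3433 and 3865 in untreated RNA. The RankL values were far below the untreated ones on both arrays, with no overlap. The log2 ratios were −3.55 on array 1 and −3.97 on array 2, with a mean of −3.76 ± 0.30, or 13.5-fold lower with RankL. The gene stood 2nd from the lowest of all 12877 measured genes. The probe was well above background in all 4 channels, so the ratio was measured on both sides. Spink1 protein is known chiefly from the pancreas, where it blocks trypsin that is activated too early. Of a list of pancreatic acinar markers, 1 of 6 with a probe was measured (Cel, a lipase, at 0.12 ± 0.041). Their summed normalised intensity was 477 and 481 in RankL RNA, against 473 and 471 in untreated RNA. As 5 of the 6 were not measured, these sums come mainly from dim probes and cannot show whether acinar RNA changed. Other digestive enzyme genes known from the pancreas, named after their values were seen, were well above background in both RNAs on both arrays. Of these, the trypsin genes Prss3 and Try5 had log2 ratios of 0.036 ± 0.037 and 0.20 ± 0.087. The chymotrypsin gene Ctrb1 and the elastase gene Cela1 had −0.45 ± 0.11 and −0.55 ± 0.12, and none of these 4 met the size rule. With the scanner software's ratios Ctrb1 had −0.63 and Cela1 −1.39. The related genes Prss2, Ctrl, Cela2a and Cela3b had a probe but were not measured.

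Markers of the secretory cells of the crypt moved in both directions beside Spink1. All 8 Paneth and goblet cell markers were measured, with 4 higher and 2 lower by the size rule, beside 5.47% and 2.5% of all measured genes. Itln1, an intestinal lectin, had a log2 ratio of −1.71 ± 0.12 and Agr2, a protein disulfide isomerase of goblet cells, −1.58 ± 0.058. The 4 higher genes were Mmp7, a Paneth cell metalloprotease that processes defensins, at 3.12 ± 0.13, the goblet cell genes Fcgbp and Zg16 at 1.92 ± 0.25 and 1.89 ± 0.18, and the Paneth cell lysozyme Lyz1 at 1.46 ± 0.15. Muc2 and Tff3, both known from goblet cells, had −0.30 ± 0.23 and −0.34 ± 0.099 and did not meet the rule. The 8 genes summed to a normalised intensity of 22066 and 21254 in RankL RNA, against 16943.5 and 17849 in untreated RNA. Their part in the Spink1 difference was not tested.

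Spint1, which encodes the Kunitz inhibitor of matriptase and of hepatocyte growth factor activator, was brighter in RankL RNA on both arrays. Its brighter probe read 5536 and 5609 in RankL RNA, against 2769 and 3290 in untreated RNA, with no overlap between the groups. The log2 ratios were 0.999 and 0.77, with a mean of 0.88 ± 0.16, or 1.85-fold, which is under the 2-fold rule. A ratio higher than this was seen in 6.41% of measured genes. The second Spint1 probe read 2190 and 2032 in RankL RNA, against 1359 and 1416 in untreated RNA, again without overlap. Its mean log2 ratio was 0.60 ± 0.12, so the probes had the same sign and differed in size.

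**Figure D2:**
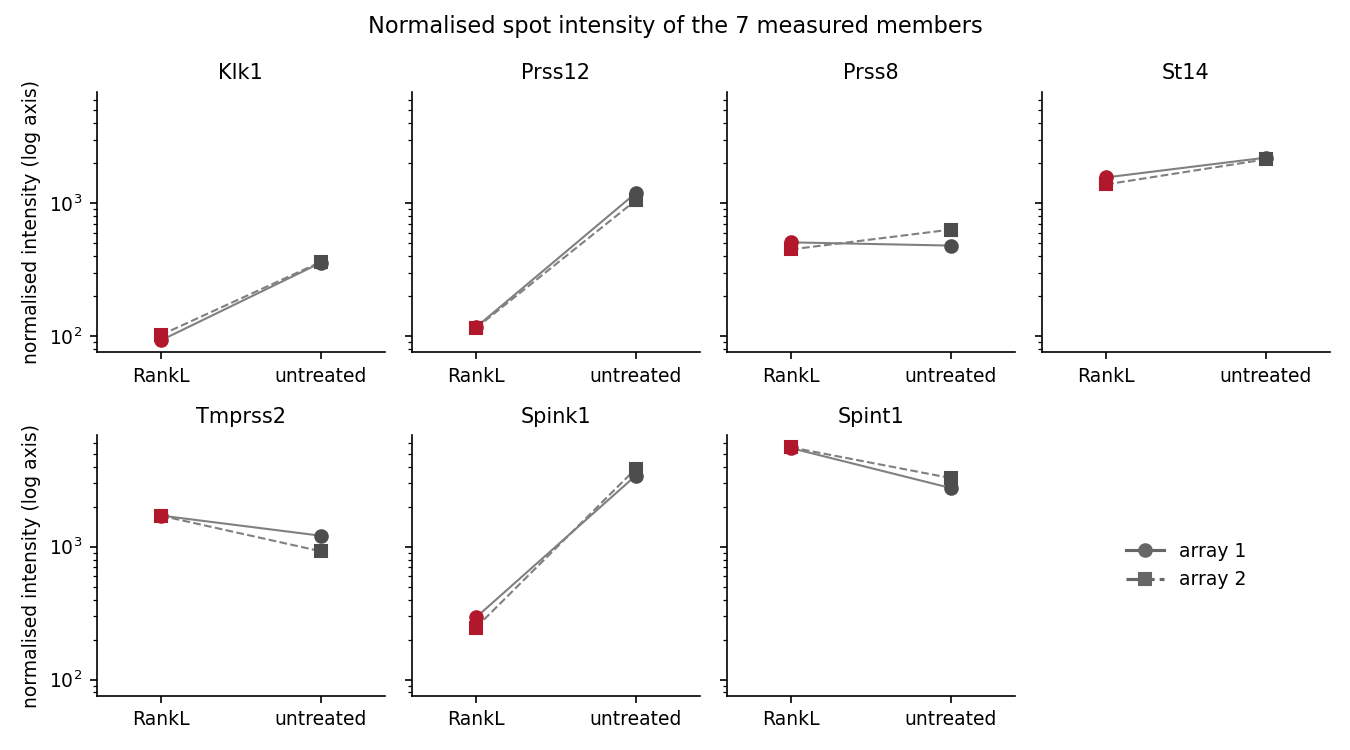
Normalised spot intensity (log axis) of the 7 measured members in RankL RNA (left) and untreated RNA (right), with points of the same array joined (circles and solid lines, array 1; squares and dashed lines, array 2). Spink1 read 293 and 246 in RankL RNA, against 3433 and 3865 in untreated RNA, while the Prss8 lines cross. The height of 1 gene cannot be set against that of another, since probes differ in brightness.

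Of the proteases, Prss12 had the lowest ratio. It encodes neurotrypsin, a secreted multidomain protease known for cutting the heparan sulfate proteoglycan agrin at synapses. Its probe read 116 and 115 in RankL RNA, against 1192 and 1051 in untreated RNA, so that the groups lay far apart. The log2 ratios were −3.36 and −3.20, with a mean of −3.28 ± 0.11, or 9.69-fold lower with RankL, 6th from the lowest of all measured genes. The RankL signal was only a little over its surroundings, at 72 over a local background of 18 on array 1 and 170 over 114 on array 2, although it was flagged as well above background on both. The size of the fold depended on the setting, since the scanner software's own ratios gave −4.62, or 24.7-fold, while the direction was the same.

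Klk1 encodes tissue kallikrein, which releases kinins from kininogen. Its probe read 92.8 and 102 in RankL RNA, against 356 and 361 in untreated RNA, without overlap. The log2 ratios were −1.94 and −1.83, with a mean of −1.88 ± 0.080, or 3.69-fold lower with RankL, 75th from the lowest of all measured genes. In RankL RNA the spot was well above background on 1 of the 2 arrays, at 57 over a local background of 23 on array 1 and 159 over 116 on array 2. In untreated RNA it was well above background on both, at 420 over 111 and 338 over 22. With the scanner software's ratios the value was −3.44, or 10.8-fold, so the direction held while the size of the fold did not.

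Klk1b26, a member with Klk1 of the mouse glandular kallikrein family, could not be measured. Its spot read 44.5 over a local background of 26 and 127 over 115 in RankL RNA, and 116 over 114 and 42 over 20 in untreated RNA. None of the 4 readings was well above background, and no fold is given. Of the 14 genes of this family looked for, Klk1 and the Klk1b genes, 12 had a probe and 4 were measured. The 4 measured ones, Klk1, Klk1b3, Klk1b4 and Klk1b8, passed the filter only through untreated RNA, where they are bright, so nothing is read from their number.

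Klk1b3, known as the gamma subunit of the nerve growth factor complex, had log2 ratios of −2.21 and −2.03 (mean −2.12 ± 0.13). Its second, dimmer probe had a mean of −0.53, so its probes differed in size. Klk1b4, the alpha subunit of the same complex, had −0.93 and −1.38 (mean −1.15 ± 0.32). Klk1b8, another glandular kallikrein, had −1.19 and −1.12 (mean −1.16 ± 0.045). Klk1b4 and Klk1b8 were not well above background in RankL RNA on either array. They are given as rough bounds for the mean of the arrays, 2.22-fold and 2.21-fold lower with RankL. Such a bound sets the bright group's mean against the lowest signal counted as well above background, or the dim probe's own where that is higher. For Klk1b4 it is the fold of the mean itself. It is no minimum for a single array, since Klk1b4 on array 1 and Klk1b8 on array 2 lay under theirs. Klk1b3 was well above background in RankL RNA on 1 of the 2 arrays. These genes are close copies of one another and the probe sequences were not used here, so a probe may read RNA of its neighbours and the value of each single gene is uncertain.

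**Figure D3:**
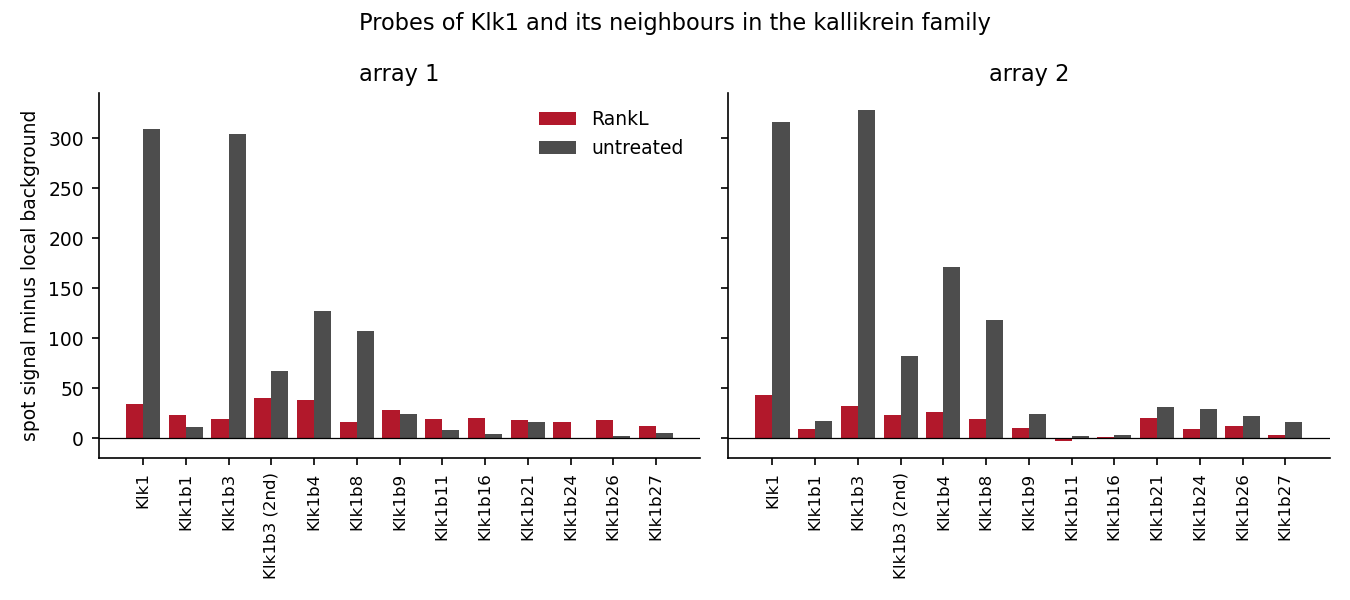
Spot signal minus local background, in scanner units, of the 13 probes of Klk1 and the Klk1b genes in RankL RNA (left bar) and untreated RNA (right bar) on each array. The probes of Klk1, Klk1b3, Klk1b4 and Klk1b8 are brighter in untreated RNA on both arrays, and the probes of the other 8 genes are dim in both RNAs.

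The other kallikreins of the genome, with the Klk1b genes included, made a list of 24 genes, of which 22 had a probe and 6 were measured. Of these 6, 3 were lower by the size rule, 0 were higher and 3 were neither, beside 2.5% lower and 5.47% higher of all measured genes. The list's median log2 ratio was −0.70. That median depended on the filter, at −0.022 with dim probes kept and −0.047 where both RNAs had to be well above background, and it was −1.63 with the software's ratios. The 3 lower genes are Klk1b3, Klk1b4 and Klk1b8. As these passed the filter only through untreated RNA, where they are bright, nothing is read from their number. Klk10, Klk9 and Klk15, which lie outside the Klk1b group, had −0.24 ± 0.15, −0.047 ± 0.10 and −0.019 ± 0.085. Of these, Klk9 was well above background in both RNAs on both arrays, Klk10 in RankL RNA on 1 array only, and Klk15 in untreated RNA on neither, so its ratio is measured on 1 side only.

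St14 and Prss8 make up the surface protease pair of epithelia. The brighter St14 probe read 1565 and 1387 in RankL RNA, against 2206 and 2141 in untreated RNA. The groups did not overlap, and the log2 ratios were −0.50 and −0.63, with a mean of −0.56 ± 0.093, or 1.48-fold lower in RankL RNA, short of the rule. A lower ratio was seen in 8.12% of measured genes. A second St14 probe was dim, at 98.4 and 87.0 in RankL RNA, against 95.8 and 104 in untreated RNA, and its mean ratio was −0.11 ± 0.21, with opposite signs on the arrays. Prss8 read 507 and 449 in RankL RNA, against 480 and 633 in untreated RNA. Its groups overlapped: the log2 ratio was 0.081 on array 1 and −0.50 on array 2, with a mean of −0.21 ± 0.41. Its direction is therefore not settled by these arrays.

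Tmprss2, a transmembrane protease known for cutting the surface proteins of respiratory viruses, was brighter in RankL RNA by both of its probes. The first read 1717 and 1714 in RankL RNA, against 1211 and 925 in untreated RNA. The second read 867 and 714 in RankL RNA, against 453 and 460 in untreated RNA. Neither probe's groups overlapped. The mean log2 ratios were 0.70 ± 0.27 and 0.79 ± 0.21, or 1.62-fold and 1.72-fold, below the rule, and 8.74% of measured genes had a ratio above that of the first probe. The first probe's log2 ratios were 0.50 on array 1 and 0.89 on array 2, with its untreated readings farther apart than its RankL readings.

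**Figure D4:**
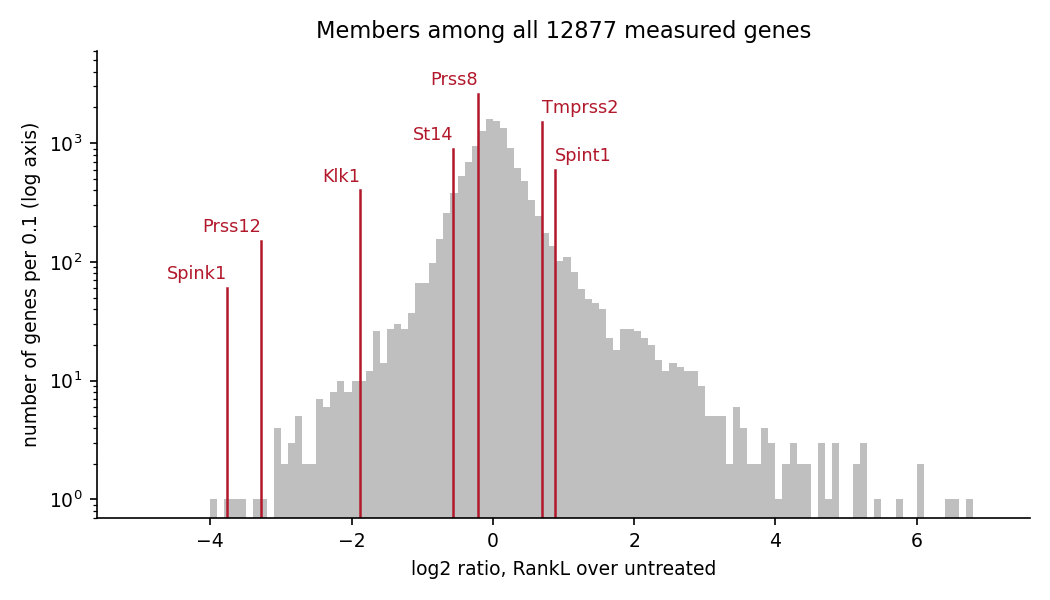
Number of genes per 0.1 of log2 ratio (log axis) over all 12877 measured genes, with the 7 measured members marked. Spink1 and Prss12 stand at the far lower end of the distribution, Klk1 in the lower tail, Prss8 near the centre, and St14, Tmprss2 and Spint1 a little outside the 10th and 90th percentiles of −0.50 and 0.63. The height of a marker line has no meaning.

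Related proteases were described by lists that were also chosen with earlier results known. Of 25 other membrane-anchored serine proteases, 19 had a probe and 4 were measured, with 0 higher and 0 lower and a median of −0.40. That median was −0.58 on array 1 alone and −0.23 on array 2 alone, 0.023 with dim probes kept, and −0.62 with the software's ratios. Prss30 had a ratio of −0.63 ± 0.14, and its probe was not well above background in RankL RNA. Tmprss4, a transmembrane relative of Tmprss2, had −0.47 ± 0.25. Among 40 secreted, digestive and other serine proteases, which include the tissue factor F3, a cofactor, 34 had a probe and 19 were measured. Of these, 4 were higher and 1 was lower, beside 5.47% and 2.5% of all measured genes, with a median of −0.014.

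The 4 higher genes of that list act in different places. Htra2, a mitochondrial protease, had log2 ratios of 1.91 and 1.78 (mean 1.85 ± 0.089, or 3.59-fold). The coagulation factor genes F7 and F10 had means of 1.67 ± 0.12 and 1.01 ± 0.076, and C1s1, a protease of the classical complement pathway, had 1.33 ± 0.12. F7, F10 and C1s1 were dim in untreated RNA on both arrays and passed the filter only through RankL RNA, so nothing is read from their number. They are given as rough bounds for the mean of the arrays, 3.17-fold, 2.01-fold and 2.39-fold higher with RankL. For F7 and F10 the bound is the fold of the mean itself, and array 1 alone gave less than the bound for each of these genes. F10 lay at the threshold, with 0.96 on array 1, and 3 rather than 4 genes of the list were higher on array 1 alone and under median centring. Prss23, a secreted protease, was the 1 lower gene, with ratios of −1.44 and −1.18 (mean −1.31 ± 0.18).

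Among 37 other genes with Kunitz, Kazal or WAP domains, 32 had a probe and 10 were measured. Of these, 2 were higher and 2 were lower, beside 5.47% and 2.5% of all measured genes, with a median of 0.17. Spink4, a Kazal gene known from goblet cells, had log2 ratios of −1.99 and −2.23 (mean −2.11 ± 0.17, or 4.32-fold lower with RankL). Smoc2, a matricellular protein with a Kazal-like domain and a known stem cell marker of the crypt, had −1.55 and −1.42 (mean −1.48 ± 0.092), and its second probe had −1.20. Agrn, which encodes agrin, had 1.50 and 1.86 (mean 1.68 ± 0.25, or 3.21-fold higher with RankL). Col7a1, a collagen of anchoring fibrils with a Kunitz domain, had 1.03 and 1.05 (mean 1.04 ± 0.017).

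Among 27 known or candidate substrates and receptors of these proteases, 26 had a probe and 15 were measured. Of these 15, 3 were higher and 0 lower, beside 5.47% and 2.5% of all measured genes, with a median of 0.066. Scnn1a, the alpha subunit of the epithelial sodium channel, had log2 ratios of 2.01 and 1.83 (mean 1.92 ± 0.13, or 3.79-fold higher with RankL). The genes of its beta and gamma subunits, Scnn1b and Scnn1g, were not measured. Agrn, the substrate of neurotrypsin, is counted here too. Cdhr5, a protocadherin of the brush border, had 1.52 and 0.99 (mean 1.25 ± 0.38), and its second probe had 0.74. With array 2 alone or with the mean over all measured probes, 2 rather than 3 genes of the list were higher, and with array 1 alone there were 4. Epcam, an adhesion protein that matriptase is known to cut, and its partner Cldn7, a claudin of tight junctions, had 0.15 ± 0.018 and −0.37 ± 0.15.

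**Figure D5:**
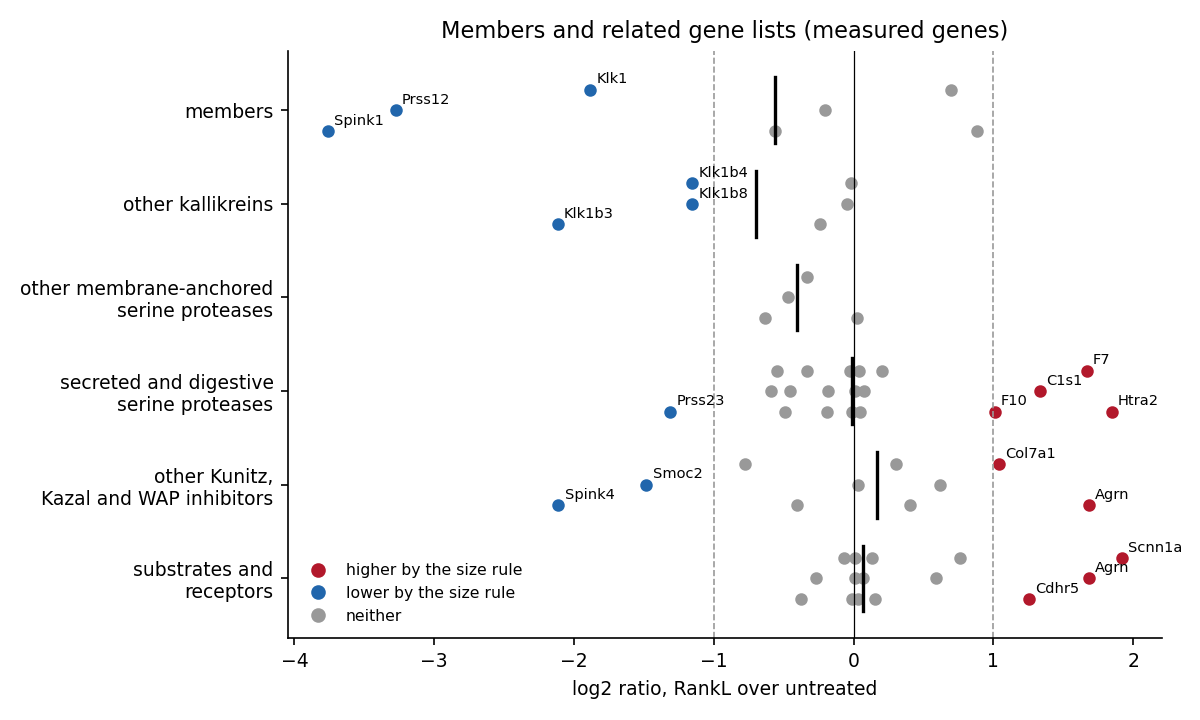
Log2 ratio of RankL over untreated for the measured genes of the set and of 5 related lists (points, 1 gene each; black bar, median; dashed lines, a 2-fold difference). The members' 3 lower genes lie at −3.76, −3.28 and −1.88, the lower kallikreins are all Klk1b genes, and Scnn1a and Htra2 are the genes farthest to the right. Agrn appears in both of the last lists.

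The genes next to the members on the chromosome were read as well, with up to 2 on each side in the order of the RefSeq table. Outside the kallikrein cluster, 18 neighbours were measured, and 2 were higher and 0 lower by the size rule. Among all measured genes, 5.47% were higher and 2.5% lower. The neighbours of Prss12 had ratios of 0.18 (Sec24d) and −0.21 (Mettl14). On the side of Klk1 away from Klk1b4, 2410002F23Rik had 0.20. The 2 higher neighbours, named after their values were seen, were Vps18 near Spint1 (1.34 ± 0.44) and 2200002D01Rik near Spint2 (1.04 ± 0.47). The measured neighbours of Tmprss2 lay between −0.068 (Ripk4) and 0.42 (Bace2). None of the neighbours of Spink1 was measured.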

How the data were processed

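Total RNA was labelled with Cy3 or Cy5 and read on 2 dual-colour Agilent arrays on 1 slide, per the labels, so no slide batch could be tested. The deposited scanner files hold spot and local background intensity values, with flags of 0 or 1 and log10 ratios of red over green that the scanner software background-subtracted and dye-normalized, per the file headers. Those headers name Agilent Feature Extraction 10.5.1.1, and the submitters' processing notes name 8.5.1.1. The deposited series matrix holds the same log10 ratios with array 1 turned to RankL over untreated (largest difference 5.0e-06, column medians 0), which is the direction used here.

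With limma 3.58.1 in R 4.3.3, the median spot signal was background-corrected (normexp, offset 50) and normalized by loess within each array, control spots at weight 0. Outlier spots were left out, and 0 spots were saturated. Ratios were turned to RankL over untreated and averaged over the arrays as log2 values, and normexp compresses the ratios of dim probes. The brightest measured probe stands for a gene. Levels per channel used Aquantile. The number of arrays limits the precision, and no test or likeness of patterns was computed from 1 RNA pair. The steps were tested on simulated data with differences set in bright probes only, so that test does not cover dim probes. Names came from a RefSeq table of GRCm38.p6, matched by accession without version (26918 of 41174 probes). Array coordinates are on another build and are not printed. All members are named, and from each list of related proteases, inhibitors or substrates every gene that met the size rule, or otherwise the 2 with the largest ratios. The cell type marker lists were outside that rule. The members and lists were chosen with earlier results of these data known. The alternatives covered background, normalization, arrays, probes, filters and the software's ratios. No value column was left unused.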

Additional observations from a re-analysis of the deposited data

How the results depend on the processing

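Over 9 alternatives, which changed the background correction, the normalization, the arrays averaged, the probe rule, the filter on dim probes or the source of the ratios, all 7 measured members kept their call by the size rule wherever a value could be had, and 0 of their called values changed sign. Klk1 had a value under 8 of them, since it drops out when both RNAs must be well above background. Its log2 ratio ranged between −3.44 and −1.80, that of Prss12 between −4.62 and −3.20 and that of Spink1 between −4.18 and −3.55. Spint1 ranged between 0.69 and 0.999, and on array 1 alone it fell only just short of the rule. Tmprss2 ranged between 0.50 and 0.89 and St14 between −0.70 and −0.33, while Prss8, which was not called, spanned −0.50 to 0.081. Of 62 member ratios under the alternatives, 9 moved from the main value by at least the SD over the arrays. Several alternatives leave a member's value as it is by construction, such as the probe rule for genes with 1 measured probe. Levels scaled by quantiles over all 4 channels moved 1 of 7 level differences, that of St14, to −0.65.

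The scanner software's ratios gave 1148 genes higher and 781 lower among all measured genes, against 704 and 322 here, and median centring gave 610 and 389. With the software's ratios, 1 other membrane-anchored protease was lower (0 here), 4 secreted and digestive proteases were lower (1 here) and 4 Kunitz, Kazal and WAP genes were lower (2 here). Without background correction and with median centring, 1 Kunitz, Kazal or WAP gene was higher (2 here). When both RNAs had to be well above background, 0 other kallikreins were lower (3 here) and 1 secreted or digestive protease was higher (4 here), since fewer genes are then tested. The other causes were not tested. No paired analysis was possible because both arrays hold 1 RNA pair. The low signal of Klk1, Prss12 and the Klk1b genes in RankL RNA limits the size of their folds.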
